A study of Mus musculus with 5 samples.

Results

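Itgae, Itgax, Itgam, Itgal, Itga4, Itga1 and Itga2 encode integrin alpha chains, Itgb2 and Itgb7 encode integrin beta chains, and Icam1 encodes a ligand of the beta2 integrins. These 10 genes were taken by name from 3 deposited single-cell expression matrices of mouse leukocytes and dendritic cells, which hold 18087, 19427 and 19603 genes, 15968 of them in all 3. All 10 members were found in each matrix, and the rule that picks them uses names and no threshold on a value.

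The first matrix holds live CD45+ cells sorted from 5555 melanomas grown in C57BL/6 mice and collected on day 4, with 1 library each from Ptgs+/+ tumours, Ptgs-/- tumours, and Ptgs-/- tumours in mice given anti-NK1.1 (clone PK136) and anti-Asialo GM-1 to deplete NK cells. The second holds 1 library of live CD45+ cells from CT26 tumours in BALB/c mice, collected on day 12. The third holds C57BL/6 bone marrow cells cultured with FLT3L and GM-CSF to day 10. Its 3 conditions were read from 1 hashtagged library: untreated, with 5555 Ptgs+/+ tumour cells, or with 5555 Ptgs-/- tumour cells. The Ptgs genes encode the cyclooxygenases that begin prostaglandin synthesis. Their deletion lies in the injected or added tumour cells and not in the leukocytes, so it could not be checked in the sorted cells. The 2 Ptgs-/- libraries from 5555 tumours share that deletion and differ in the depleting antibodies. Each group was 1 library or 1 hashtagged culture, so no comparison between groups has a replicate check and no p-value is given.

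An integrin is a heterodimer of 1 alpha and 1 beta chain that binds matrix or ligands on other cells. Itgb2 pairs with Itgal (LFA-1), Itgam (Mac-1, the CD11b of myeloid cells) and Itgax (CD11c of dendritic cells), and LFA-1 and Mac-1 bind ICAM-1 when leukocytes attach to other cells. Itgb7 pairs with Itgae (CD103, which binds E-cadherin and marks many cDC1 and tissue T cells) and with Itga4, which also pairs with Itgb1 to bind VCAM-1 and fibronectin. Itga1 and Itga2 pair with Itgb1 to bind collagen, and Itga2 is the CD49b antigen used to stain NK cells.

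On build GRCm38, Itgam (chromosome 7, 128062640 to 128118491), Itgax (128129547 to 128150657) and Itgal (127296260 to 127335138) all lie on the plus strand of chromosome 7. Itga2 (114833081 to 114932100) and Itga1 (114953096 to 115101964) are neighbours on the minus strand of chromosome 13. Itgae lies on chromosome 11 (73090583 to 73147446), Itga4 on chromosome 2 (79255426 to 79333123), Itgb2 on chromosome 10 (77530252 to 77565708), Itgb7 on chromosome 15 (102215995 to 102231944) and Icam1 on chromosome 9 (21015985 to 21028817). The gene models of Itgae, Itga4 and Icam1 are overlapped by models on the other strand (Haspin, Cerkl and Gm47079), and those of Itgam and Itga1 by models on the same strand (Gm49368, and Gm49395 and Pelo). Whether reads were shared between such models is not given in the sources used here, so the counts of these 5 members are less certain.

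The 250 bases before the RefSeq start (GRCm38.p6) are shown for 4 members. Icam1 and Itga4 were both highest in the CCR7+ dendritic cells of most groups, and Itgam and Itgax are near neighbours whose values parted in tumour macrophages. Sequences run 5′ to 3′ on the plus strand, and capitals mark matches to the motifs named below.

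Icam1, chr9:21015690-21015939: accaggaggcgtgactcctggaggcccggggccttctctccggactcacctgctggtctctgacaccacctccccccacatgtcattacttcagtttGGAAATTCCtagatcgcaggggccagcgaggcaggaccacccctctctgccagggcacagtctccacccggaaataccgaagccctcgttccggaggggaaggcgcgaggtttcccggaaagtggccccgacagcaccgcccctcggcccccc

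Itga4, chr2:79255176-79255425: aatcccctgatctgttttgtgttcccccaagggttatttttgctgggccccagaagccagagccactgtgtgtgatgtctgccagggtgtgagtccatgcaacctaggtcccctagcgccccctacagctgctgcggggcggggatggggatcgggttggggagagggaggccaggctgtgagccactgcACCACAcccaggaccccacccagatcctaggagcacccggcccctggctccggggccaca

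Itgam, chr7:128062390-128062639: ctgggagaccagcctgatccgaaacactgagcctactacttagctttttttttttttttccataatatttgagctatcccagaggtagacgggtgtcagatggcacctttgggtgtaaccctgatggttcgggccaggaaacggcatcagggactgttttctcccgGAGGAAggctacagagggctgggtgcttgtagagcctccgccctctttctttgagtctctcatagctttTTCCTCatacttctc

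Itgax, chr7:128129300-128129549: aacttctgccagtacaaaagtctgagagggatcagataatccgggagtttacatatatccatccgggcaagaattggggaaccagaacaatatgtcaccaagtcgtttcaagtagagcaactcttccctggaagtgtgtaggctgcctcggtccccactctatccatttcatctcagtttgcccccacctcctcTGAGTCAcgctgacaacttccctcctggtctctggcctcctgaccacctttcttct

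The motifs were searched on both strands and were chosen after the sequences had been seen. An NF-kB motif (GGAANNTCC, in 3.59% of 32851 promoter windows of this length) lay 153 bases before the start of Icam1, and a second NF-kB form (GGGANTTCC, in 1.43%) was in none of the 7 members that have a RefSeq entry. The PU.1 motif GAGGAA (23.3% of windows) stood at 2 places in Itgam, AP-1 (TGANTCA, 6.75%) once in Itgax, and RUNX (TGTGGT, 14.0%) once in Itga4. The CRE motif TGACGTCA (1.55%) was in none of the 7. These matches describe letters and show no binding.

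The 5555 matrix gave 11818 cells in 14 annotated classes, with 3262 cells from Ptgs+/+, 4677 from Ptgs-/- and 3879 from NK-depleted tumours, and the CT26 matrix 8987 cells in 14 classes. The cultures gave 3344 untreated cells, 3884 with Ptgs+/+ and 3584 with Ptgs-/- tumour cells in 6 classes. Summed over cells, depth ran from 13341140 to 39748611 unique molecular identifiers (UMIs) per group, and the median cell held 3633.5 to 5462 UMIs in the 5555 libraries, 3821 in CT26 and 8805 to 9709 in the cultures. Levels below are means over cells of CPM, the UMIs of a gene scaled by the total UMIs of its cell. A 3′ tag library gives no length-corrected value, so levels are compared between classes and groups and not between genes. A difference was called when the ratio of mean CPM + 5 was at least 1.5-fold, at least 5% of cells in either group had a UMI, and both groups had at least 30 cells of the class. Intervals in parentheses are 95% exact intervals for a level or a ratio of summed UMIs, and they cover counting error only. No test was run between groups, and fewer cells of a kind and less RNA per cell within a class cannot be told apart.

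Class labels are the authors'. Ncr1, Eomes, Gzma and Prf1 were at 0 in the 45 cells labelled NK in the NK-depleted library, and 24 of those cells had a Cd3e UMI, so these are called the NK-labelled cells. The class labelled T cells in 5555 tumours had a Cd3e UMI in 35 of 66, 110 of 214 and 47 of 109 cells. Summed markers of innate lymphoid cells (ILC) were also highest in that class. They stood at 2068, 1675 and 1741 CPM for ILC1 and 1744, 2023 and 3063 CPM for ILC2, beside 2939.5, 2780 and 2338 CPM for T cells. Its name is therefore the label alone. The class labelled TAM 1 in CT26 held 605 CPM of summed macrophage markers, against 8179 in TAM 2 and 7096 in TAM 3. Its summed cDC2 markers, 1115 CPM, were below only those of cDC2 (2270 CPM), so it is named by its label alone. The dendritic cells labelled cDC3 (5555), actDC (CT26) and mDC (cultures) had the highest summed level of the CCR7+ dendritic cell markers and are called CCR7+ DCs.

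Itgb2, the beta chain shared by LFA-1, Mac-1 and CD11c, was found across myeloid and lymphoid classes. In Ptgs+/+ tumours Itgb2 was highest in TAM 2 (a tumour macrophage class) at 496 CPM, and in CT26 tumours in TAM 1 at 468 CPM, and in both it stood apart from the next class by its counting interval. In the Ptgs-/- library the highest class was Mono Mac at 453 CPM, which was not apart from NK cells at 433 CPM. In the NK-depleted library Monocytes 2 at 405 CPM were not apart from Mono Mac at 392 CPM. Its lowest values in classes with UMIs included the CCR7+ DCs, at 32.1, 25.6 and 12.7 CPM in the 3 libraries in the order Ptgs+/+, Ptgs-/-, NK-depleted, and 18.9 CPM in CT26.

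Itgam, the Mac-1 alpha chain, was highest in classes labelled TAM in the tumour libraries. TAM 2 was highest in all 3 5555 libraries, at 1261, 873 and 1092 CPM, and 71.4%, 56.7% and 65.2% of TAM 2 cells had UMIs of both Itgam and Itgb2. TAM 2 was apart from the next class except in the Ptgs-/- library, where Mono Mac stood at 849 CPM. In CT26 tumours TAM 1 (749 CPM) and moDC (639 CPM) led, and in cultures cDC2 did, at 188, 165 and 152 CPM.

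Itgal, the LFA-1 alpha chain, was highest in NK cells, at 720 CPM in Ptgs+/+, 876 in Ptgs-/- and 319 in CT26 tumours, each apart from the next class. Monocytes 2 came next in the first pair, at 506 and 604 CPM, ahead of T cells at 424 and 558 CPM. In the NK-depleted library Monocytes 2 led at 655 CPM, and the NK-labelled cells held 439 CPM. Itgal and Itgb2 UMIs occurred in the same cell in 36.5%, 48.2% and 19.2% of NK cells of Ptgs+/+, Ptgs-/- and CT26 tumours, and in 39.5%, 42.4%, 64.8% and 27.6% of cDC1 in the 3 5555 libraries and CT26. None of the CCR7+ DCs of the 4 tumour libraries held both. Such shares depend on depth. In CT26 the median was 2240.5 UMIs per NK cell and 6871 per cDC1, so the shares are not compared between NK cells and cDC1.

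Itgax, which encodes CD11c, was led by different classes in different libraries. In Ptgs+/+ tumours TAM 1 (445 CPM) was highest and not apart from cDC2 (373 CPM), which were apart from TAM 2 (288 CPM). In the Ptgs-/- library cDC2 led at 285 CPM, apart from NK cells at 181 CPM, and in the NK-depleted library cDC2 at 243 CPM were apart from Mono Mac at 103 CPM. In CT26 tumours cDC2 (90.0 CPM) and TAM 1 (70.9 CPM) were not apart.

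**Figure D1:**
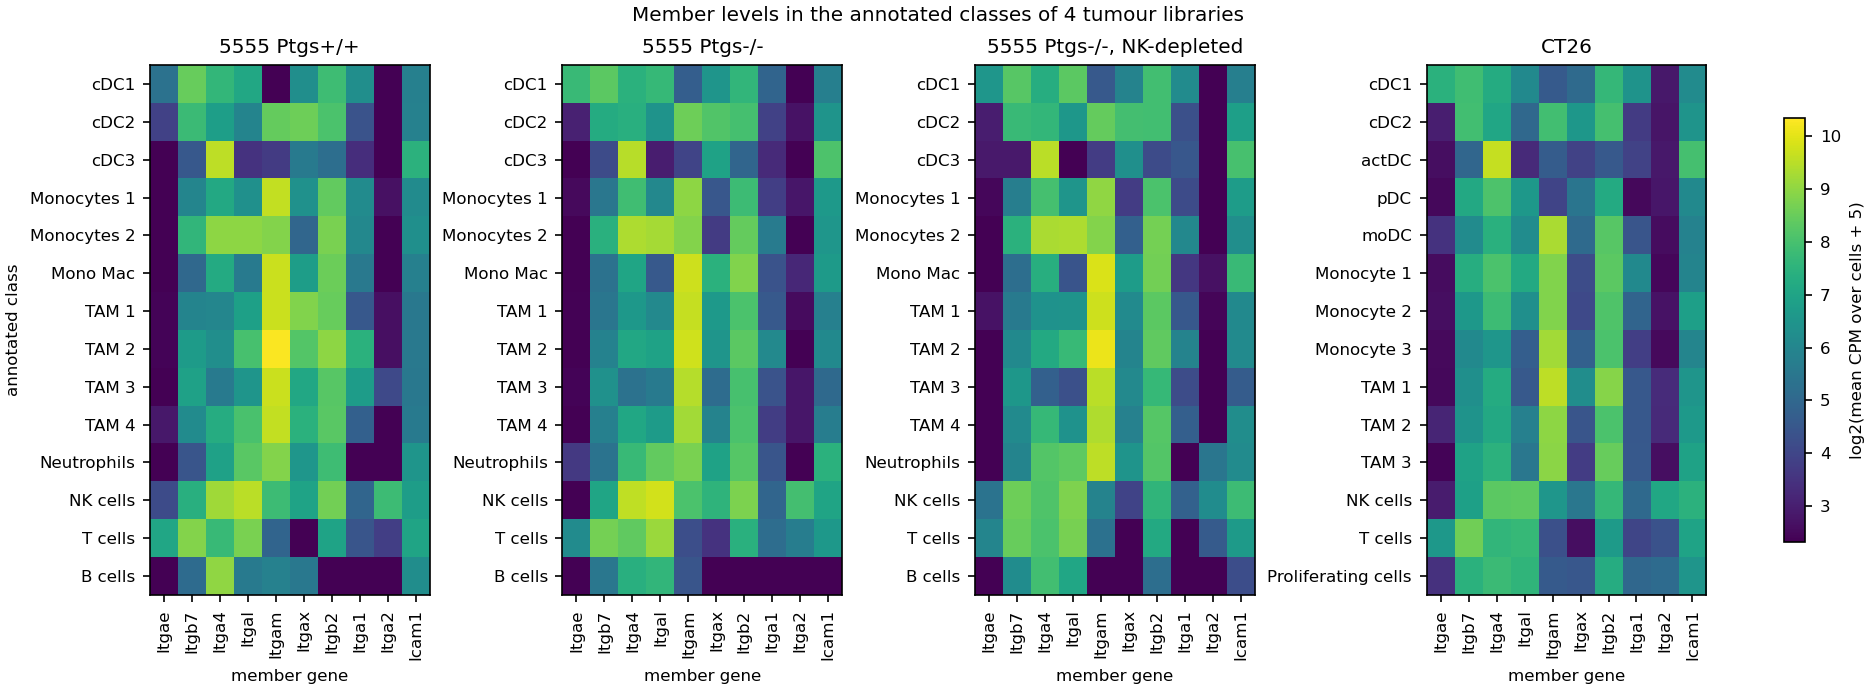
Heatmaps of log2(mean CPM over cells + 5) for the 10 members (columns) in each annotated class (rows), 1 panel for each of the 4 tumour libraries. Itga2 was bright in NK cells and near the floor in most other classes, Itga4 and Icam1 were high in the CCR7+ DC class (cDC3 or actDC), and Itgax was high in TAM 1 of the Ptgs+/+ library at 445 CPM against 93.5 CPM in the Ptgs-/- library.

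The beta7 pair was shared between cDC1 and T cells. Itgb7 was highest in T cells of the Ptgs+/+ and Ptgs-/- libraries (454 and 399 CPM), followed by cDC1 (354 and 314 CPM). Those classes were not apart from each other, and both were apart from the rest. In the NK-depleted library the NK-labelled cells (379 CPM), T cells (349 CPM) and cDC1 (303 CPM) led without separation. In CT26 tumours T cells at 388 CPM stood apart, ahead of cDC2 (239 CPM) and cDC1 (230.1 CPM).

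Itgae, the alpha chain of CD103, lay mainly in those 2 classes. Its cDC1 levels were 36.0, 211 and 87.5 CPM in the 3 5555 libraries (12, 57 and 39 UMIs) and 171 CPM in CT26, and its T-cell levels were 128, 68.5, 58.4 and 92.3 CPM. Thus T cells led in the Ptgs+/+ library, without separation from cDC1, and cDC1 led in the others, apart from T cells in the Ptgs-/- and CT26 libraries. A UMI of Itgae was seen in 15.8%, 48.5%, 31.5% and 53.3% of cDC1, against 0.164%, 0.107% and 0.414% of TAM 1 cells of the 5555 libraries. Median depths were 5132, 8261, 7481 and 6871 UMIs per cDC1, and 5178, 6173 and 6868 UMIs per TAM 1 cell. With every cell thinned to 2000 UMIs the cDC1 shares were 5.26%, 30.3%, 11.1% and 29.9%. Among cDC1, 10.5%, 42.4%, 29.6% and 37.6% held UMIs of both Itgae and Itgb7. Of the T-labelled cells with Itgae, 66.7%, 68.4%, 60.0% and 72.0% had a Cd3e UMI, and 0.0%, 10.5%, 10.0% and 1.0% a Cd8a UMI.

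**Figure D2:**
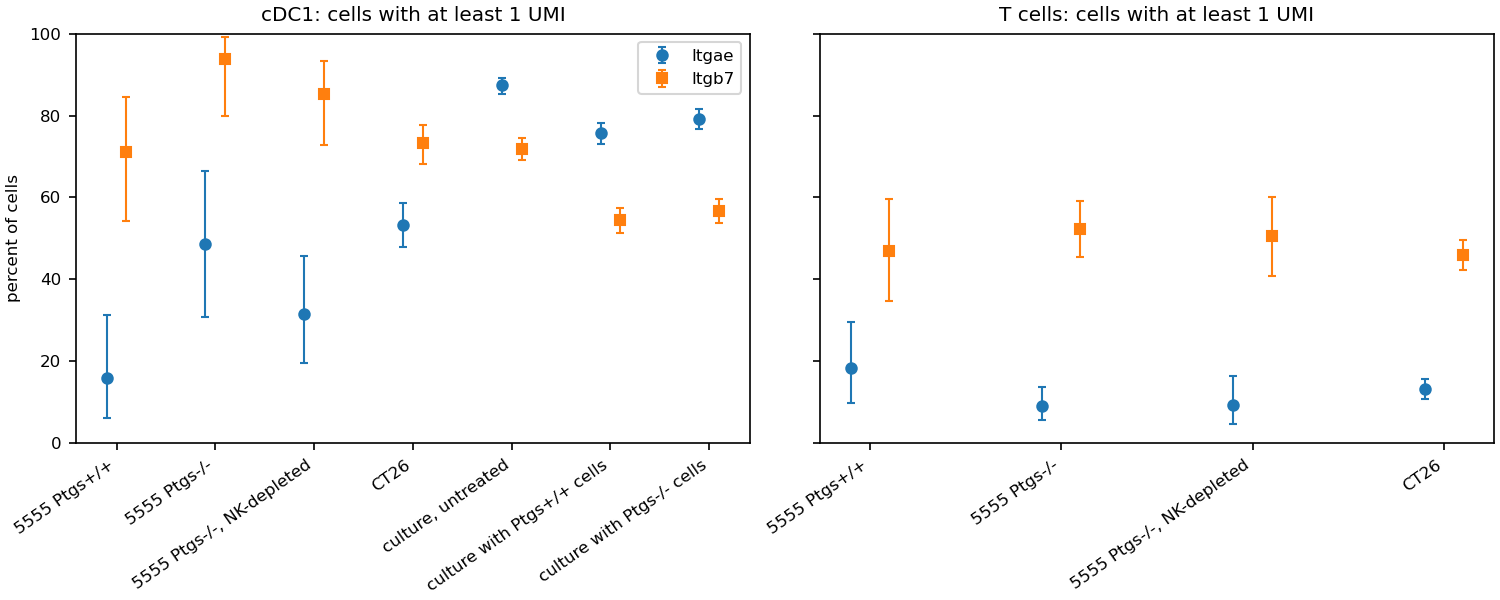
Percent of cells with at least 1 UMI of Itgae or Itgb7 (y axis) in cDC1 of the 7 groups and T cells of the 4 tumour libraries (x axis), points with 95% Clopper-Pearson intervals. Itgae was seen in 15.8% to 53.3% of tumour cDC1 and 75.7% to 87.4% of culture cDC1, and in 8.88% to 18.2% of T cells.

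The adjacent genes of the collagen receptor chains had different leading classes. Itga2 was highest in NK cells, at 220.1 CPM in Ptgs+/+, 244 in Ptgs-/- and 132 in CT26 tumours, each apart from the next class. NK cells held 77.6% and 81.6% of all Itga2 UMIs of the Ptgs+/+ and Ptgs-/- libraries, and it was at 0 in 7 of 13 and 6 of 14 classes there. Itga1 was highest in TAM 2 (169 CPM, apart from TAM 3 at 102 CPM) in the Ptgs+/+ library. It was highest in TAM 2 (63.1 CPM) of the Ptgs-/- library and cDC1 of the NK-depleted (67.9 CPM) and CT26 (81.6 CPM) libraries, none apart from the next class. NK cells with both numbered 1 of 137, 14 of 510 and 11 of 1346 in the Ptgs+/+, Ptgs-/- and CT26 libraries, where 6, 28 and 76 had Itga1 and 42, 195 and 303 had Itga2. NK cells with Itga2 had an Eomes UMI in 57.1%, 70.8% and 57.1% of cases in these 3 libraries, and those without it in 46.3%, 64.1% and 56.0%.

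Itga4 and Icam1 shared their leading class. Itga4 was highest in CCR7+ DCs of the Ptgs+/+ library (735 CPM, apart from NK cells at 579 CPM), the NK-depleted library (731 CPM, not apart from Monocytes 2 at 640.1 CPM) and CT26 (791 CPM, apart from NK cells at 315 CPM). In the Ptgs-/- library NK cells (753 CPM), CCR7+ DCs (709 CPM) and Monocytes 2 (649.8 CPM) were not apart in that order. Icam1 was highest in CCR7+ DCs of all 4 tumour libraries, at 174, 269.5, 255 and 245 CPM. It was apart from the next class in CT26 (NK cells, 171 CPM), and not in the 5555 libraries, where T cells (123 CPM), neutrophils (170.1 CPM) and NK-labelled cells (222 CPM) came next.

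CCR7+ DCs differed from the other conventional dendritic cells in nearly every member, and in the same direction in all 7 groups for most of them. The annotation was drawn from all genes, so these differences describe the class and are not a test. The 7 groups are given in the order Ptgs+/+, Ptgs-/- and NK-depleted 5555 tumours, CT26 tumours, untreated culture, culture with Ptgs+/+ cells and culture with Ptgs-/- cells. Over cDC2, 14 of 58 member-by-group values that passed the detection filter were called higher and 41 lower. The background was 16.0% higher and 33.4% lower of all gene values. Over cDC1, 14 of 62 were higher and 43 lower, with a background of 19.8% higher and 33.2% lower.

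Itga4 was higher in CCR7+ DCs than in cDC2 and cDC1 in 7 of 7 groups. Its CCR7+ DC levels were 735, 709, 731, 791, 214, 311 and 293 CPM, against 108, 160.3, 192, 128, 21.8, 16.5 and 16.5 CPM in cDC2. The levels over cDC2 were 6.53, 4.32, 3.73, 5.98, 8.16, 14.7 and 13.9-fold, and the lowest UMI ratio, in the NK-depleted library, was 3.90 (3.28 to 4.62). A UMI of Itga4 was seen in 77.8% to 93.3% of tumour and 59.3% to 69.8% of culture CCR7+ DCs.

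Icam1 was also higher in 7 of 7 groups over both. In CCR7+ DCs it stood at 174, 269.5, 255, 245, 121, 121 and 95.3 CPM, which was 3.13, 3.08, 2.26, 2.78, 2.95, 4.11 and 3.35-fold over cDC2. Between 41.7% and 66.7% of CCR7+ DCs had an Icam1 UMI.

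The beta chains among the members, Itgb2 and Itgb7, went the other way. Itgb2 was lower in CCR7+ DCs than in cDC2 in 7 of 7 groups, at 32.1, 25.6, 12.7, 18.9, 49.1, 17.1 and 17.2 CPM, or 7.20, 8.16, 13.6, 10.6, 2.41, 4.49 and 4.06-fold lower. Itgb7 was lower than in both in 7 of 7, with 5, 4, 1 and 14 UMIs in all CCR7+ DCs of the 4 tumour libraries and 75.1, 17.1 and 29.6 CPM in cultures. The other chain that pairs with Itga4 was present: Itgb1 stood at 398, 556, 683, 726, 209.7, 188 and 241 CPM. In cDC2 of CT26 and of the untreated, Ptgs+/+ and Ptgs-/- cultures Itgb1 was lower, at 378, 113, 103 and 93.9 CPM. The cDC2 levels of Itgb1 in the 5555 libraries are not given here, so no common direction over the 7 groups is stated. UMIs of Itga4 and Itgb1 occurred together in 64.8%, 81.0%, 91.1%, 83.9%, 43.0%, 46.4% and 47.8% of CCR7+ DCs, and Itga4 and Itgb7 in 3.70%, 5.17%, 2.22%, 8.93%, 23.8%, 8.49% and 11.3%.

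The alpha partners of Itgb2 were lower than in cDC2 as well. Itgal had 2, 1, 0 and 3 UMIs in the CCR7+ DCs of the tumour libraries and was called lower than cDC2 and cDC1 in 7 of 7 groups. Itgam was lower than in cDC2 in 7 of 7, for example 32.0 against 188 CPM in the untreated culture (5.23-fold lower). Itgax was 7.85, 2.36, 3.14, 6.34, 3.30, 4.82 and 3.65-fold lower than in cDC2. Against cDC1, Itgam and Itgax were each lower in 4 of 7 groups; of the other 3, Itgam was within 1.5-fold in 2 and did not pass the filter in 1, and Itgax was within 1.5-fold in 3. Itgae was lower than in cDC1 in 7 of 7, with 0, 0, 1 and 1 UMIs in the tumour libraries and 5.10, 7.70 and 8.46-fold lower levels in cultures, and Itga1 was lower than in cDC1 in 7 of 7. Over cDC2, Itgae was lower in 3 groups and did not pass the filter in 4. There Itga1 was lower in 3, within 1.5-fold in 3 and did not pass in 1. Itga2 was called in none of the 7 groups, with at most 1 UMI in the CCR7+ DCs of a group.

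**Figure D3:**
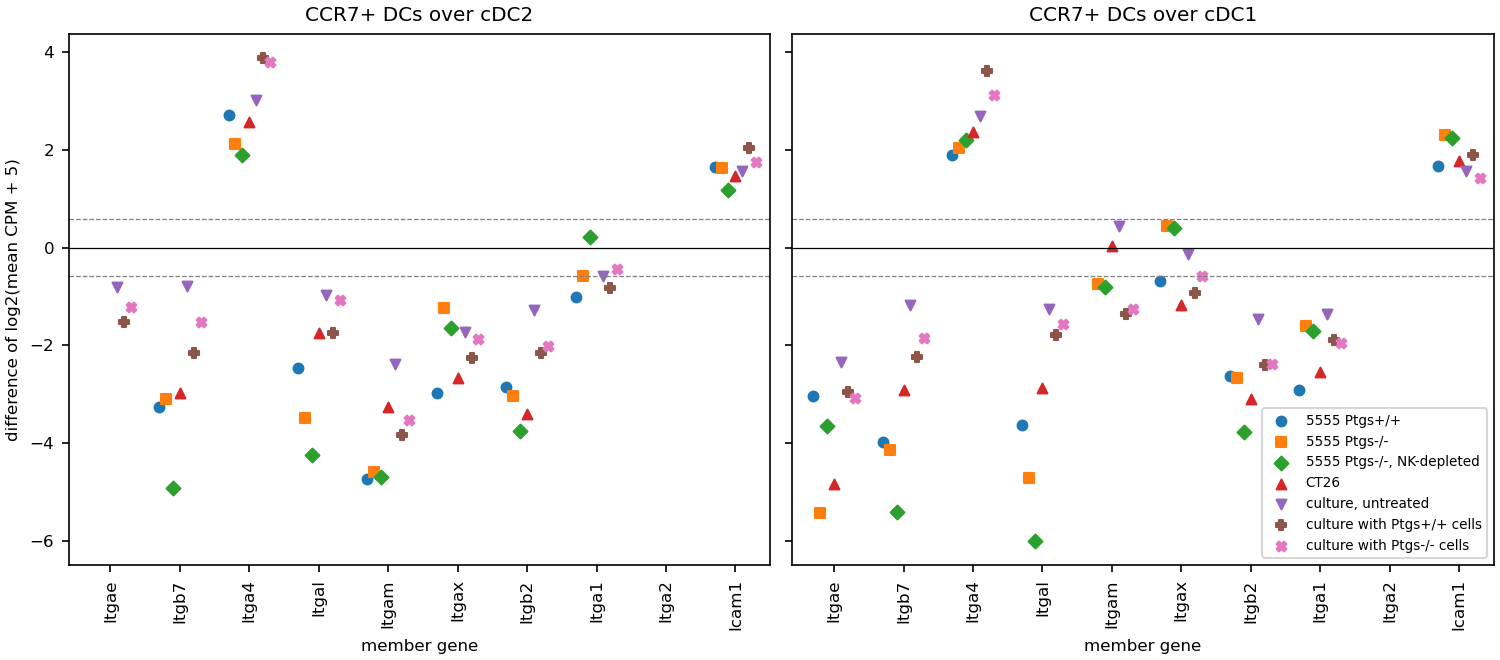
Difference of log2(mean CPM + 5) between CCR7+ DCs and cDC2 or cDC1 (y axis) for each member (x axis), 1 point for each of the 7 groups that passed the detection filter, dashed lines at 1.5-fold; the lowest points, from 0 to 5 UMIs, depend on the added 5 CPM. All 7 points of Itga4 and Icam1 lay above the upper line, and all 7 of Itgb2, Itgal and Itgb7 below the lower one, in both comparisons.

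The libraries from Ptgs-/- and Ptgs+/+ 5555 tumours were compared to see which members differed when the tumour cells lacked Ptgs. Over all classes, 100 of 130 member-by-class pairs passed the filter and 34 were called, 13 higher and 21 lower, and the interval of the UMI ratio excluded 1 in 30. The background was 17.0% higher and 12.7% lower, 29.6% in all, so the total was near the background. The median member difference ran from -0.75 to 0.40 on the log2 scale over classes, with a middle class at -0.03, against 0.04 for all genes. The median gene was shifted by 0.19 in neutrophils and 0.13 in TAM 3. Counted relative to it, 14 were higher and 23 lower. Means of log2 values per cell gave another split, 33 higher and 22 lower (40.0% lower, against 61.8%).

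Macrophages and monocytes held most of the lower values. In the 7 monocyte and macrophage classes 19 of 55 pairs were lower (34.5%, against 9.79% of all genes) and 4 higher (7.27%, against 13.6%). Itgax was lower in 6 of the 7 classes, Itgal in 5, Itga1 in 4, Itgb2 in 2, and Itgam and Itgb7 in 1 each. Itga4 was higher in 2, and Itgax and Icam1 in 1, which was Mono Mac for both.

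Itgax differed most in TAM 1. Its level was 445 CPM in the Ptgs+/+, 93.5 in the Ptgs-/- and 66.2 in the NK-depleted library, from 1486, 581 and 251 UMIs. A UMI of Itgax was seen in 80.6%, 28.1% and 25.5% of TAM 1 cells (53.9%, 14.9% and 9.11% at 2000 UMIs per cell), against 0 of 66, 1 of 214 and 0 of 109 T cells. Median depths were 5178, 6173 and 6868 UMIs per TAM 1 cell and 1642, 2076.5 and 2372 UMIs per T cell. Both libraries from Ptgs-/- tumours were thus low and the Ptgs+/+ library high. The Ptgs-/- level was 4.57-fold lower, with a UMI ratio of 4.53 (4.11 to 4.99). The share of TAM 1 cells with both Itgam and Itgax was 78.3%, 26.6% and 24.4%, while Itgam itself was within 1.5-fold in that class.

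Itgax was also lower in the Ptgs-/- than in the Ptgs+/+ library in the other TAM and Monocytes classes, while the NK-depleted level lay above the Ptgs-/- level in TAM 3 and Monocytes 2. TAM 2 gave 288, 85.1 and 56.5 CPM in the 3 libraries (3.24-fold lower in Ptgs-/-), TAM 3 gave 134, 30.5 and 63.2 CPM (3.93-fold lower) and TAM 4 gave 169, 55.0 and 53.1 CPM (2.89-fold lower). Monocytes 1 held 79.1, 17.7 and 8.49 CPM (3.70-fold lower), and Monocytes 2 held 26.1, 8.12 and 22.3 CPM (2.37-fold lower). Mono Mac went the other way, with 105, 171 and 103 CPM and a 1.60-fold higher Ptgs-/- level (UMI ratio 1.77, 1.32 to 2.41).

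Other lineages' markers moved in the same classes. The summed level of 6 neutrophil markers in TAM 1 was 1145 CPM in Ptgs+/+ and 134 CPM in Ptgs-/-, with 3 of the 4 that passed lower. It was 784 and 81.3 CPM in TAM 2, 860.1 and 66.7 in TAM 3, 891 and 103 in TAM 4 and 584 and 8.05 in Mono Mac. In Monocytes 1 it was 395 and 129 CPM and in Monocytes 2 977 and 598 CPM. A list of 4 platelet genes stood at 549 and 30.7 CPM in TAM 1 and 677 and 14.2 CPM in TAM 3, with Gp1bb at 0 in both libraries. Cells with another lineage's UMI were then left out, meaning a UMI of Cd3e, Ncr1, Cd79a, C1qa, S100a8 or Xcr1 outside the classes the gene marks. Without them the Itgax difference in TAM 1, 2, 3 and 4 was -2.22, -1.73, -2.07 and -1.52 on the log2 scale, against -2.19, -1.70, -1.97 and -1.53 with them. Of the neutrophil markers only S100a8 was used, and no platelet gene was. The part of these lineages in the Itgax values was not tested.

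Itgal, the LFA-1 chain, was lower by smaller amounts. TAM 2 gave 255, 118 and 207 CPM in the Ptgs+/+, Ptgs-/- and NK-depleted libraries, 2.11-fold lower in Ptgs-/- (UMI ratio 2.21, 1.79 to 2.76), and TAM 4 gave 256, 101 and 80.5 CPM, 2.47-fold lower. TAM 1 (112, 64.0 and 82.8 CPM) and TAM 3 (85.6, 44.2 and 14.6 CPM) were 1.69 and 1.84-fold lower. Mono Mac was 2.04-fold lower, but its interval included 1.

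Itga1, the collagen receptor chain, was lower in Monocytes 1 at 68.7, 8.90 and 12.8 CPM, a 5.30-fold difference (UMI ratio 6.03, 3.97 to 9.25), and in TAM 3 at 102, 15.8 and 13.3 CPM, 5.17-fold (6.06, 3.91 to 9.60). In TAM 2 it was 169, 63.1 and 55.3 CPM and in Mono Mac 42.8, 15.9 and 7.21 CPM, 2.55 and 2.29-fold lower in Ptgs-/-. In these classes too the 2 Ptgs-/- libraries lay below the Ptgs+/+ library. They were compared with the same single Ptgs+/+ library.

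Itga4 stood out from these alpha chains by being higher. In Monocytes 1 it was 139, 231 and 248 CPM, 1.64-fold higher in Ptgs-/- (UMI ratio 1.61, 1.36 to 1.91), and in TAM 2 it was 72.7, 135 and 142 CPM, 1.81-fold higher (1.77, 1.39 to 2.26). Icam1 in Mono Mac was 51.2, 98.1 and 209.7 CPM, 1.84-fold higher in Ptgs-/- (1.81, 1.25 to 2.72). Among the beta chains, Itgb2 was 1.54-fold lower in Monocytes 1 (339 and 219 CPM) and 1.56-fold lower in TAM 2 (496 and 316 CPM), and Itgb7 1.80-fold lower in TAM 2 (99.9 and 53.3 CPM). Itgam was 1.55-fold lower in Monocytes 1, at 772 and 495 CPM.

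**Figure D4:**
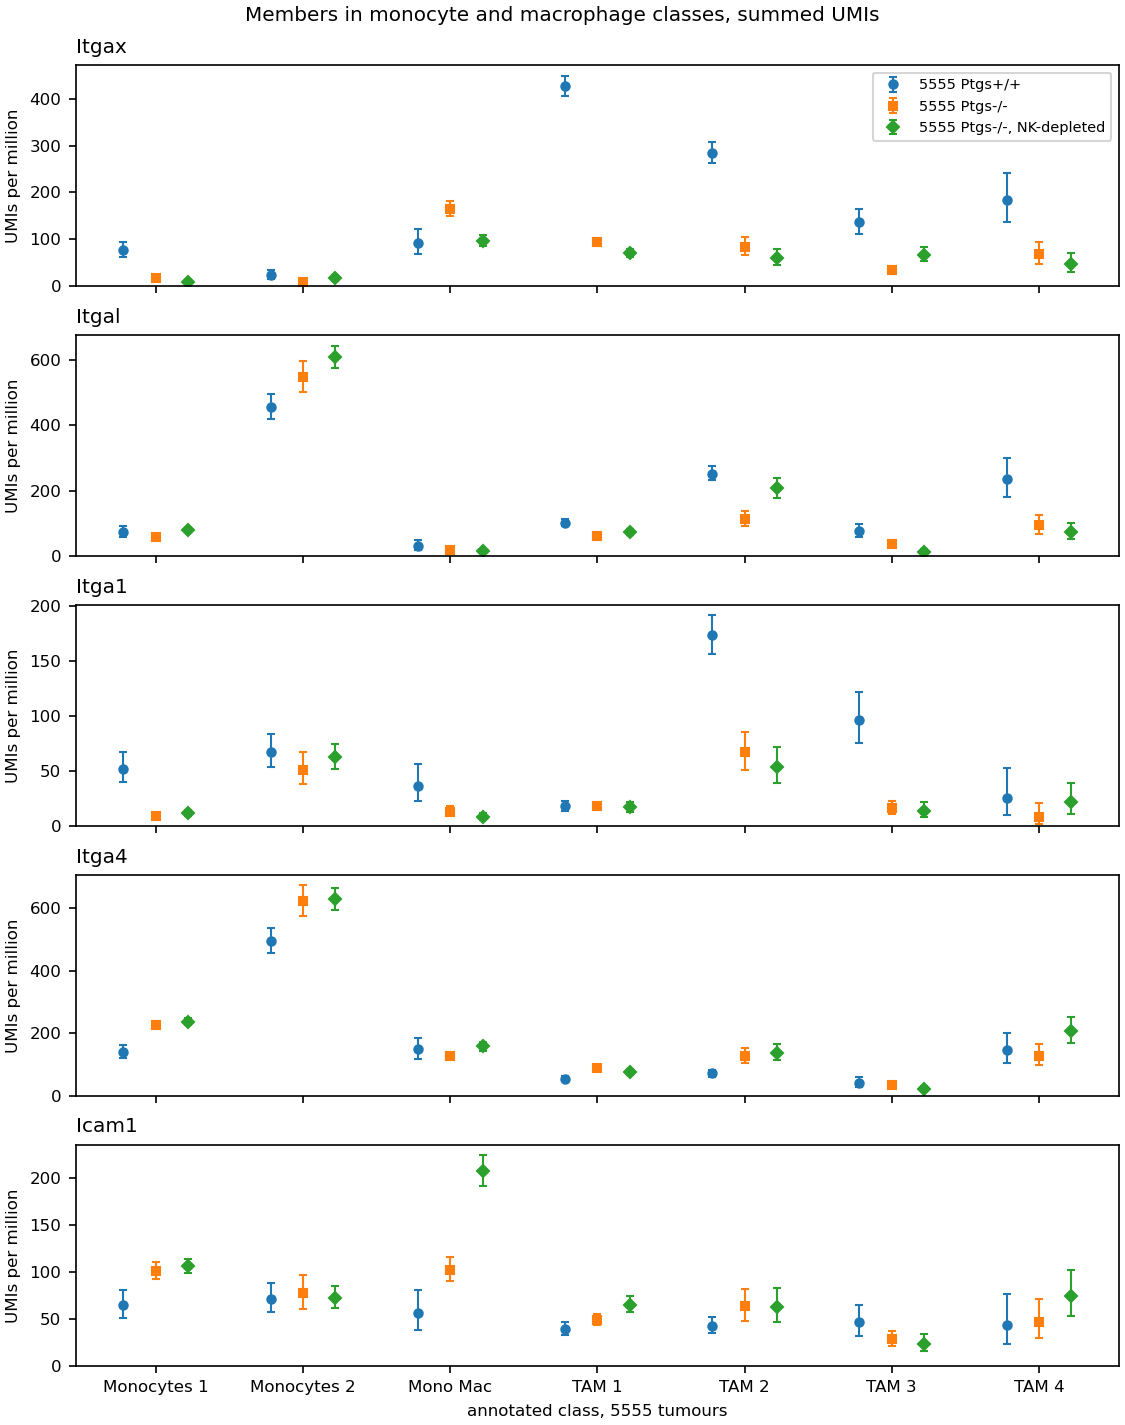
Summed UMIs scaled to CPM, with 95% Poisson intervals (y axis) for Itgax, Itgal, Itga1, Itga4 and Icam1 in the 7 monocyte and macrophage classes (x axis) of the 3 5555 libraries. Itgax was highest in the Ptgs+/+ library in 6 of the 7 classes, the exception being Mono Mac.

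Fewer of the called member values lay in dendritic cells. The shares over all genes were 27.6% higher and 21.8% lower in cDC1, and 24.0% and 23.7% in CCR7+ DCs. In cDC2 they were 10.7% and 7.57%. A call in cDC1 or CCR7+ DCs was thus common among all genes. In cDC1, Itgae was 36.0 CPM in Ptgs+/+ and 211 CPM in Ptgs-/- tumours, 5.26-fold higher (UMI ratio 3.82, 2.02 to 7.81), from 38 and 33 cells. In those cells the summed cDC1 markers were 1012 and 1844 CPM, proliferation markers 0 and 442 CPM and NK markers 281 and 101 CPM, and their part in the result was not tested. Itga1 was 2.60-fold lower in the same class (72.4 and 24.8 CPM; 2.85, 1.11 to 8.18). Icam1 was higher in cDC2 (52.2 and 84.1 CPM, 1.56-fold) and CCR7+ DCs (174 and 269.5 CPM, 1.53-fold), and Itgax was higher in CCR7+ DCs (43.2 and 118 CPM, 2.56-fold). Itgam had 0 UMIs in the Ptgs+/+ and 6 in the Ptgs-/- cDC1, and the interval of the ratio included 1. In cDC2, Itgax was within 1.5-fold.

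T cells and neutrophils gave 5 further values. Of all genes that passed in neutrophils, 1177 of 3362 were higher and 458 lower. In T cells 1350 of 5819 were higher and 1078 lower. A call in either class was thus common among all genes. T cells held less Itgae in Ptgs-/- (128 and 68.5 CPM, 1.82-fold lower; UMI ratio 2.18, 1.08 to 4.20) and more Itga4 (206 and 327 CPM, 1.57-fold higher; 1.87, 1.14 to 3.25). The Itga4 value in T cells, and that of Icam1 in cDC2, was under 1.5-fold without cells holding another lineage's UMI. Neutrophils had 86.7 and 170.1 CPM of Icam1 (1.91-fold higher) and 116 and 209 CPM of Itga4 (1.77-fold, interval including 1). Itga2 had 1 and 22 UMIs in T cells, a ratio of 5.23 (0.845 to 216). In NK cells all 9 members that passed were within 1.5-fold, so the NK gene Itga2 (220.1 and 244 CPM) did not differ by that size.

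NK depletion was compared within Ptgs-/- tumours. Over all classes 32 of 106 pairs were called, 15 higher and 17 lower, with intervals that excluded 1 in 21. The background was 12.3% higher and 10.6% lower, 22.9% in all. Without the NK-labelled class, 23 of 96 were called, 12 higher and 11 lower, and the interval excluded 1 in 12. These 24.0% were near the 22.9% of all genes, a share that includes that class. The median gene shifted by 0.19 in B cells and 0.11 in NK-labelled cells, and 12 were higher and 19 lower relative to it. This comparison shares the undepleted Ptgs-/- library with the one above.

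In the NK-labelled class 9 of the 10 members that passed were called (background 27.2% higher, 22.7% lower), and the 45 remaining cells differed from NK cells in their markers. The summed NK markers were 11485 CPM in the undepleted and 118 CPM in the depleted library, and the T-cell markers 647 and 2861 CPM. In the depleted library these cells also held 1077 CPM of ILC1 and 1574 CPM of ILC2 markers, in both next after the class labelled T cells. Itga2 was 244 and 69.8 CPM, from 266 and 9 UMIs (3.33-fold lower), and 8 of those 9 UMIs lay in cells with a Cd3e UMI. Itgam (263 and 54.6 CPM, 4.50-fold lower), Itga4 (753 and 275 CPM, 2.70-fold), Itgb2 (433 and 187 CPM, 2.28-fold) and Itgal (876 and 439 CPM, 1.98-fold) were lower too. Itgax had 229 and 2 UMIs, a ratio of 0.0727 (0.00875 to 0.266). Itgb7 was higher (125 and 379 CPM, 2.94-fold), and it stood at 534 CPM in cells with Cd3e and 202 CPM in cells without. Itgae had 0 and 10 UMIs, all 10 in cells with Cd3e, and the interval of its UMI ratio began at 18.7. Icam1 was 1.77-fold higher, at 123 and 222 CPM. It stood at 120 CPM in the 24 cells with Cd3e and 338 CPM in the 21 without, where 24 UMIs lay in 5 cells.

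Outside that class, Icam1 in Mono Mac was 98.1 CPM in the undepleted and 209.7 CPM in the depleted library, 2.08-fold higher (UMI ratio 2.03, 1.76 to 2.35). In neutrophils it was 170.1 and 67.7 CPM, 2.41-fold lower. Itgae in cDC1 was 211 and 87.5 CPM, 2.34-fold lower (2.34, 1.53 to 3.61). Itgal was higher in TAM 2 (118 and 207 CPM, 1.72-fold) and cDC1 (202 and 314 CPM, 1.54-fold) and lower in TAM 3 (44.2 and 14.6 CPM, 2.51-fold). Its cDC1 value was under 1.5-fold relative to the median gene. Itgax was lower in Mono Mac (1.62-fold) and Monocytes 1 (1.68-fold). It was higher in TAM 3 (1.92-fold) and Monocytes 2 (1.06 on the log2 scale), so the monocyte and macrophage classes had no common direction here. The shares over all genes were 25.2% higher and 26.6% lower in neutrophils and 20.8% and 16.5% in cDC1. They were 3.53% and 3.01% in Mono Mac, 1.47% and 2.05% in Monocytes 1, and 5.70% and 3.48% in Monocytes 2. In TAM 2 they were 7.73% and 8.54%, and in TAM 3 5.01% and 9.55%.

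The cultures show the members in dendritic cells exposed to tumour cells directly, and their 3 comparisons share groups. With Ptgs+/+ cells, 27 of 53 pairs were called, 4 higher and 23 lower, against a background of 4.83% and 15.4% (20.2% in all). With Ptgs-/- cells, 18 of 54 were called, 2 higher and 16 lower, against 3.37% and 10.9% (14.3%). Between the 2 co-cultures, 4 of 54 were called, 4 higher with Ptgs-/- cells and 0 lower, against 2.63% and 2.10% (4.73%). The median gene itself was lower than in the untreated culture, by a log2 difference between -0.28 and -0.06. Relative to it the splits were 5 higher and 16 lower with Ptgs+/+ cells, and 5 and 8 with Ptgs-/- cells, which takes the lower share of the latter from 88.9% to 61.5%.

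Itgax and the beta7 pair made up most of the lower values. Itgax was lower in 6 of 6 classes with Ptgs+/+ cells (4 relative to the median gene) and in 4 with Ptgs-/- cells (1 relative to it). In cDC2, where it is highest, it was 135, 71.0 and 88.3 CPM in untreated, Ptgs+/+ and Ptgs-/- cultures, 1.85-fold lower with Ptgs+/+ cells (UMI ratio 1.78, 1.60 to 1.97). In CCR7+ DCs it was 37.5, 10.8 and 20.5 CPM, 2.70-fold lower with Ptgs+/+ cells, and 1.62-fold higher with Ptgs-/- than with Ptgs+/+ cells (1.95, 1.47 to 2.59).

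Itgb7 was lower in 5 of 6 classes with Ptgs+/+ cells (4 relative to the median gene) and in 2 with Ptgs-/- cells (2 relative to it). In CCR7+ DCs it was 75.1, 17.1 and 29.6 CPM (3.62 and 2.32-fold lower than untreated), in cDC1 175, 99.1 and 121 CPM (1.73-fold lower with Ptgs+/+ cells, under 1.5-fold relative to the median gene) and in pDC 122, 47.8 and 94.9 CPM (2.41-fold). Its pDC and CCR7+ DC levels were 1.89 and 1.56-fold higher with Ptgs-/- than with Ptgs+/+ cells, with UMI ratios of 1.88 (1.30 to 2.76) and 1.30 (1.01 to 1.67).

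Itgae in cDC1, its main class, was 319.9, 200.3 and 245 CPM, seen in 87.4%, 75.7% and 79.2% of cells. It was 1.58-fold lower with Ptgs+/+ cells, a size not reached relative to the median gene. The summed cDC1 markers of that class were 999.9, 412 and 589 CPM, and their part in the result was not tested. Both Itgae and Itgb7 were seen in 63.5%, 44.1% and 47.7% of cDC1. As measured, Itgae was lower in 4 classes with Ptgs+/+ cells and in 3 with Ptgs-/- cells (2 in each relative to the median gene). It was higher in 1 class, with Ptgs-/- cells. In proliferating cDC2 its log2 difference was -1.72 with Ptgs+/+ and -1.76 with Ptgs-/- cells. In CCR7+ DCs it was -1.26 and -1.11, and -0.78 and -0.73 without cells holding another lineage's UMI.

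The beta2 chains were lower in culture CCR7+ DCs. Itgb2 was 49.1, 17.1 and 17.2 CPM (2.44-fold lower in both co-cultures), Itgal 19.4, 6.08 and 9.33 CPM (2.20 and 1.70-fold) and Itgam 32.0, 6.94 and 8.54 CPM (3.10 and 2.73-fold). In that class 6 of the 9 members that passed were lower in each co-culture, where 25.7% (Ptgs+/+) and 20.4% (Ptgs-/-) of all genes were. Relative to the median gene, Itgal and Itgax with Ptgs-/- cells were under 1.5-fold, at -0.54 and -0.51 on the log2 scale, and 4 of the 9 were lower. Itgal was lower in 4 classes with Ptgs-/- cells as measured and in 0 relative to the median gene. The class held 214, 1060 and 477 cells, its summed CCR7+ DC markers were 4587, 6891 and 5099 CPM and its cDC1 markers 219, 60.6 and 71.8 CPM. Their part in the result was not tested.

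Higher values were fewer and included Itga1. In cDC1 it was 64.0, 103 and 93.7 CPM, 1.56-fold higher with Ptgs+/+ cells (UMI ratio 1.70, 1.54 to 1.89), and in proliferating cDC1 56.1, 95.9 and 79.8 CPM, 1.65-fold higher (1.72, 1.54 to 1.92). In pDC Itga1 was 2.44, 15.1 and 12.7 CPM, 2.70 and 2.38-fold higher in the co-cultures, from 5, 16 and 17 UMIs and with intervals that included 1. Also in pDC, Itgam was 1.58-fold higher with Ptgs+/+ cells (26.9 and 45.5 CPM; 2.08, 1.30 to 3.39), and Itgae 2.05-fold higher with Ptgs-/- cells (5 and 20 UMIs, interval including 1). Itga4 passed 1.5-fold in no class as measured, and in CCR7+ DCs alone relative to the median gene (214, 311 and 293 CPM). Icam1 was 1.82-fold lower in pDC with Ptgs+/+ cells and within 1.5-fold in the other classes of that comparison. In pDC the summed neutrophil markers were 1771, 11126 and 3562 CPM. Without cells holding another lineage's UMI, the Itgam difference in pDC was under 1.5-fold, at 0.35 on the log2 scale against 0.66 with them. The Itga1, Itgae and Icam1 differences given here for pDC stayed past 1.5-fold. The part of the neutrophil markers in the pDC values was not tested.

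**Figure D5:**
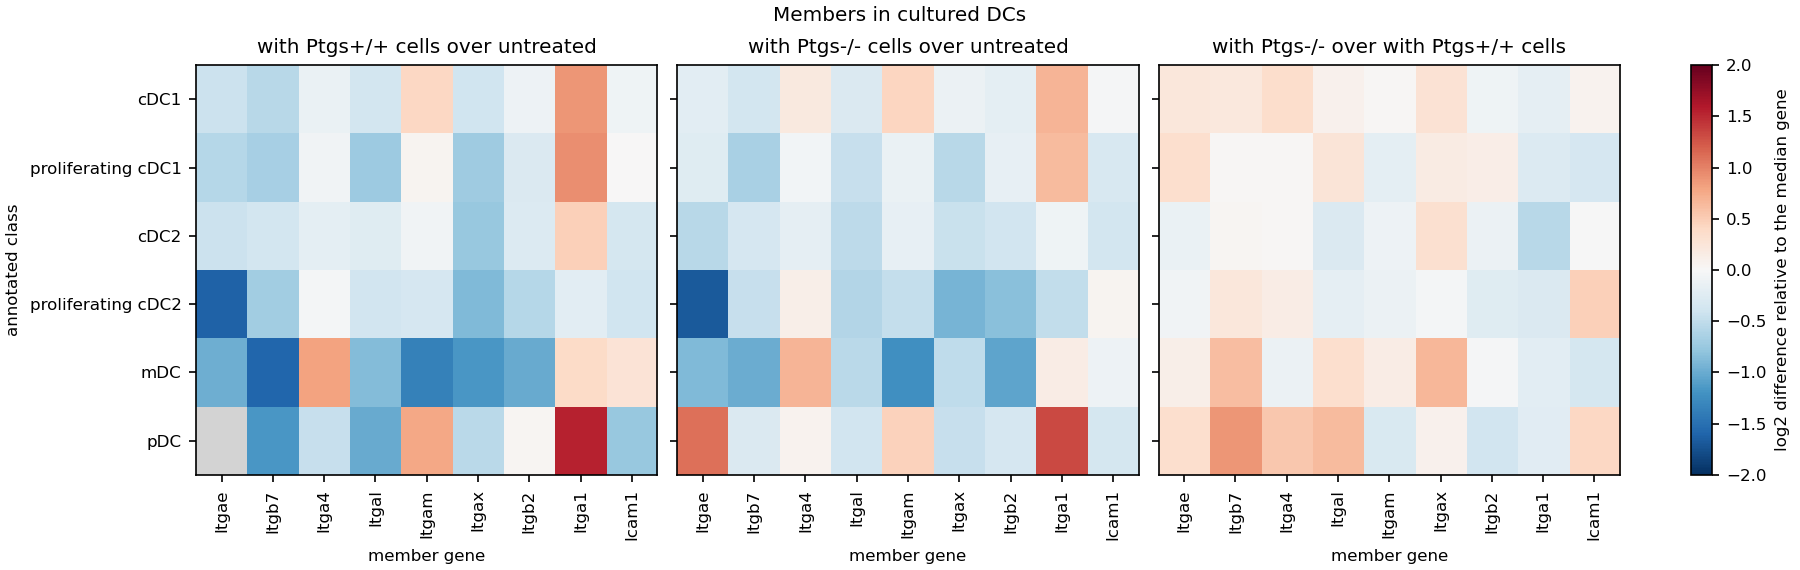
Heatmaps of the log2 difference relative to the median gene for each member (columns) and class (rows), 1 panel for each of the 3 culture comparisons, with grey where a pair did not pass the detection filter. Itga2, which passed in no pair, is not drawn. Itgam, Itgb7 and Itgb2 were lower in CCR7+ DCs (mDC) of both co-cultures, and Itga1 was higher in cDC1 with Ptgs+/+ cells.

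Other genes of the pathway were taken from 3 lists of 17 other integrin chains, 20 integrin ligands and 32 activation and adaptor genes. Between Ptgs-/- and Ptgs+/+ tumours, 16 of 68 ligand pairs were higher (23.5%) and 26 lower (38.2%), beside 17.0% and 12.7% of all genes. Thbs1, a thrombospondin, was 16.5-fold lower in Mono Mac (2386 and 140.3 CPM in Ptgs+/+ and Ptgs-/-), and Fn1, the fibronectin that Itga4 with Itgb1 binds, was 13.3-fold higher in cDC2 (59.8 and 855 CPM). Of the adaptors 35 of 310 pairs were higher (11.3%) and 43 lower (13.9%), and of the other chains 8 of 68 were higher (11.8%) and 12 lower (17.6%), near the shares over all genes. Among the latter was Itgb3 in NK cells (124 and 20.9 CPM, 4.99-fold lower). In cultures with Ptgs+/+ cells, 1 of 149 adaptor pairs was higher and 39 lower than untreated (26.2%, beside 15.4% of all genes), and with Ptgs-/- cells 0 and 24 (16.1%, beside 10.9%). These counts were not taken relative to the median gene, which was lower in both. The middle class median of the adaptors was -0.34 and -0.30 on the log2 scale, and that of all genes -0.16 and -0.16. Fyb, an adaptor of integrin activation, was 44.5, 12.8 and 19.7 CPM in CCR7+ DCs. Cdh1, the E-cadherin ligand of Itgae, was 37.2, 8.07 and 13.0 CPM in the same cells. Vcam1, a ligand of Itga4 with Itgb1, had 1, 13 and 5 UMIs in the CCR7+ DCs of the 3 5555 libraries and 2 in those of CT26, where Cdh1 and Icam2, a ligand of LFA-1, were at 0.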

How the data were processed

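The authors deposited 3 matrices of log2(CPM + 1) values per cell from 10x 3′ single-cell libraries, with their cell classes. Cell Ranger 3.0.2, Partek and the mm10 build are named in the submitters' processing notes. Within a cell, 99.9% of values were whole multiples of 1 UMI within 0.1 UMI, and the UMI counts were recovered from the deposited values that way. The 36 cells without a class and 18 cells whose 9 barcodes were shared between libraries were left out. A small spike-in was loaded with each 5555 sample, per the labels, which do not describe it. Doublets were not called; as an alternative, the top 5% of cells by genes detected were dropped. Each group was 1 library or culture, so differences of log2(mean CPM + 5) were described by size, with exact binomial or Poisson 95% intervals of UMIs. Shares of cells were also computed with each cell thinned to 2000 (tumours) or 5000 (cultures) UMIs. Members were all named; genes of the 3 lists were named by the largest difference among those seen in at least 10% of cells, with Itgb1, Cdh1, Vcam1 and Icam2 always, and like-patterned genes by the highest Pearson r over classes. Members and lists were chosen with earlier results of these data known. Computation used Python 3.11.15, numpy 2.4.6, scipy 1.17.1, pandas 2.3.3 and matplotlib 3.10.9, and was tested on simulated data. Classes of fewer than 30 cells in a group were not compared.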

Additional observations from a re-analysis of the deposited data

Results flagged for a closer look

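The 36 cells of the 5555 matrix that carry no class, with 461747 UMIs and a median of 13892 per cell, lie outside every comparison. They held 4 UMIs of Itga4 in 4 cells and 7 UMIs of Itgb7 in 5 cells, above the 3 counts that a value of 0 allows. Itgb2 had 2 UMIs there, Itga1 had 1, and the other 6 members had 0.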

How the results depend on the processing

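No paired analysis was possible because each group was 1 library or 1 hashtagged culture; leaving out a replicate was not possible for the same reason. Counts of called members moved by more than 1.5 times in 8 of 75 settings and no fold of a called member reversed. With the mean of log2 values per cell in place of the mean CPM, 55 pairs were called between Ptgs-/- and Ptgs+/+ tumours (33 higher, 22 lower), 37 between cultures with Ptgs-/- cells and untreated and 7 between the co-cultures. In classes of at least 100 cells alone, 22 were called between Ptgs-/- and Ptgs+/+ tumours and 11 with NK depletion. A pseudocount of 20 gave 9 calls for cultures with Ptgs-/- cells and 1 between the co-cultures, where a pseudocount of 1 gave 7. Of the folds of single members, 782 stayed within the counting interval of their UMI ratio under an alternative and 129 moved out of it. The class of the highest level kept its name in 199 settings and moved in 6, among them Itga4 in the Ptgs-/- library (to cDC3 with summed UMIs) and Itga2 in the NK-depleted library (to neutrophils without cells holding another lineage's UMI). Shares of cells with a UMI moved in 472 of 650 thinned or filtered settings. Cell number limits the values of the 33 to 54 cDC1 and 45 to 58 CCR7+ DCs of each 5555 library, and depth those of T cells.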

Other observations

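The genes whose levels were most like each member over the 41 class-by-library points of the 5555 tumours were taken from 10102 genes by Pearson's r. The points share libraries and depth, so r is a description. Itgam was closest to Fcgr3, an Fc receptor (0.95), and Itgb2 to Myo1f (0.90). Itga2 was closest to Fasl, the death ligand of cytotoxic cells (0.92), and Itgae to Sema4f (0.93). Itgax was closest to the tetraspanin gene Cd9 (0.76), Itgal to Rasa3 (0.87), Itgb7 to Anxa6 (0.86), Itga4 to Cnn2 (0.81), Icam1 to Glipr2 (0.89) and Itga1 to Met (0.71). Among the members themselves r was 0.71 for Itgam with Itgb2, 0.69 for Itgae with Itgb7 and 0.53 for Itga4 with Icam1.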
